A study of Mus musculus with 40 samples.

Results

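The genes described here encode 9 enzymes of triglyceride synthesis in mouse liver: Gpam, Agpat2, Agpat3, Lpin1, Lpin2, Lpin3, Dgat1, Dgat2 and Mogat1. They were chosen by symbol, as 9 of the 32544 gene rows in a table of raw read counts, and all 9 were among the 12616 genes with enough reads to be tested. Reads came from the livers of male germ-free mice of the C57BL/6 strain, raised without microbes and aged 64 postnatal days. The mice had received delta-valerobetaine (VB), a trimethylated metabolite made by gut bacteria, or vehicle for 6 weeks, on a Western diet or a control diet. The groups were Western diet with VB, Western diet with vehicle, control diet with VB and control diet with vehicle, with 5 mice in each. Every mouse in the study was germ-free, so VB is compared in hosts that lack the bacteria that make it. The dose and route of VB, the diets' composition and the time of day of collection are not stated by the labels.

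Triglyceride is built by adding fatty acids to a glycerol backbone. In the glycerol phosphate pathway, glycerol-3-phosphate acyltransferases make lysophosphatidic acid, AGPAT enzymes make phosphatidic acid, lipins remove its phosphate to give diacylglycerol, and DGAT enzymes add the last fatty acid. A separate branch starts from monoacylglycerol, which MOGAT enzymes turn into diacylglycerol. In liver this pathway supplies lipid droplets and secreted lipoproteins, and its intermediates also feed phospholipid synthesis.

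Read counts per mouse, summed over 2 sequencing lanes, ran from 18157449 to 24566686 on Western diet with VB, 16315342 to 22226536 on Western diet with vehicle, 19762505 to 23202394 on control diet with VB and 18126657 to 21308298 on control diet with vehicle. The liver label held: the 8 hepatocyte markers, among them albumin, summed to at least 38426 CPM (reads scaled to a common library size) in every mouse. The names of the libraries differ in form between the diets, so a handling batch that follows them cannot be told apart from diet. In 1 of the 2 lane files of Western diet VB mouse 1 the treatment label reads vehicle, while both titles read VB; it was kept as VB, and results are given without it where it matters. Western diet vehicle mouse 4 had 4.62% of counts from mitochondrial genes, against at most 3.33% in every other mouse. Western diet VB mice 2 and 5 carried transcripts of the adipocyte hormone Adipoq at 7.31 and 4.09 CPM, against at most 0.18 CPM in every other mouse. Expression of 21 circadian clock genes, reduced to their leading principal component as a clock score, had a mean of 0.23 ± 0.42 on Western diet with VB and 1.29 ± 0.13 on Western diet with vehicle, and -0.22 ± 0.26 on control diet with VB and -1.30 ± 0.39 on control diet with vehicle (SD over 5 mice).

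Per kilobase of exon, which allows genes to be ranked, Dgat2 stood first with a mean of 256 CPM per kb over the 20 mice. Agpat2 followed at 152, Lpin1 at 51.9, Agpat3 at 27.0, Lpin2 at 19.5, Gpam at 9.19, Dgat1 at 8.66, Mogat1 at 1.80 and Lpin3 at 0.94 CPM per kb. Each gene was above the next in all 20 mice for 5 of the 8 neighbouring pairs. The exceptions were Lpin1 over Agpat3 in 18 mice, Mogat1 over Lpin3 in 15 mice and Gpam over Dgat1 in 12 mice, so the order of these pairs is not settled. The summed level of the 9 genes averaged 522 ± 16.1 CPM per kb on Western diet with VB, 533 ± 40.6 on Western diet with vehicle, 546 ± 37.8 on control diet with VB and 507 ± 56.2 on control diet with vehicle (SD, n = 5 each). Dgat2, of the last step, held a like share of this total in each group: it made up 48.1% ± 2.23 on Western diet with VB, 49.5% ± 4.44 on Western diet with vehicle, 48.8% ± 2.91 on control diet with VB and 47.4% ± 3.94 on control diet with vehicle.

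**Figure D1:**
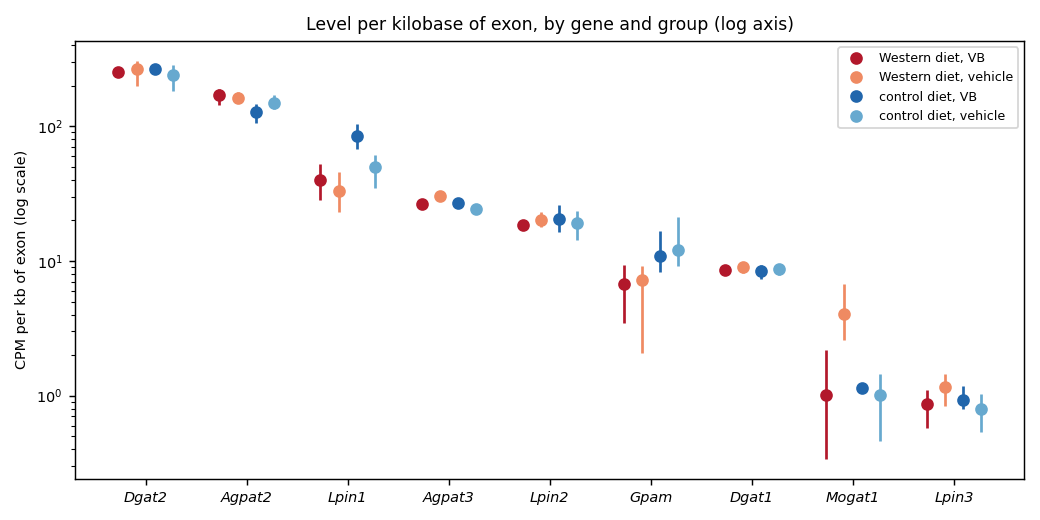
Mean level of each gene per kilobase of exon (CPM per kb, log axis) in the 4 groups; bars span the lowest to the highest of 5 mice. Dgat2 and Agpat2 sit at the top, and Mogat1 is raised in the Western diet vehicle group alone.

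The first step is catalysed by the mitochondrial glycerol-3-phosphate acyltransferase encoded by Gpam (chromosome 19, 55067268 to 55127238, minus strand, GRCm38). Gpam was at 62.5, 47.2, 49.8, 23.0 and 40.8 CPM in mice 1 to 5 on Western diet with VB, against 48.3, 57.6, 59.1, 13.8 and 61.1 CPM on Western diet with vehicle. It was at 58.0, 111.0, 69.4, 67.2 and 54.9 CPM on control diet with VB, against 61.5, 140.3, 65.9, 61.7 and 72.0 CPM on control diet with vehicle. Single mice stood apart in 3 of the groups: mouse 4 was low on Western diet with vehicle, and mouse 2 was high in both control diet groups. Western diet vehicle mice all lay below control diet vehicle mice, but the log2 difference of -0.74 (SE 0.35) was not called in edgeR's quasi-likelihood test (adjusted p = 0.17). The VB differences were -0.11 (SE 0.35) on Western diet and -0.15 (SE 0.35) on control diet. Their 95% intervals ran from -0.84 to 0.63 and from -0.88 to 0.57 on the log2 scale, so changes within those intervals are not excluded.

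The second step is shared by the lysophosphatidic acid acyltransferases encoded by Agpat2 (chromosome 2, 26593057 to 26604417, minus strand) and Agpat3 (chromosome 10, 78269178 to 78352489, minus strand). AGPAT2 is the isoform whose loss causes lipodystrophy in people. Agpat2 was at 403, 373, 332, 390.3 and 307 CPM on Western diet with VB, against 343, 344, 353, 382 and 316 CPM on Western diet with vehicle. On control diet it was at 225, 286, 282, 310.1 and 251 CPM with VB, against 309, 361, 345, 286 and 295 CPM with vehicle. The control diet VB mice tended to be low, and their range touched that of the Western diet VB mice only at its edge. In mice given VB, Agpat2 was higher on Western than on control diet by 0.41 on the log2 scale (SE 0.10, edgeR adjusted p = 0.0121), while with vehicle the diet difference was 0.12 (SE 0.10, edgeR adjusted p = 0.448). The difference between these diet effects, 0.29 (SE 0.14), was not called (edgeR adjusted p = 0.23), so the data do not show that Agpat2 responded to diet differently with VB. Agpat2 shares 64 exon bases, 3.01% of its exons, with Egfl7 on the opposite strand, and the counting's strand setting is unknown here.

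Agpat3 varied little between mice of a group. It was at 219, 201, 202, 219.6 and 189.7 CPM on Western diet with VB, against 228, 243, 247, 227 and 232 CPM on Western diet with vehicle. It was at 209, 211, 208, 214 and 205 CPM on control diet with VB, against 173, 195, 180.4, 202 and 204 CPM on control diet with vehicle. Every Western diet vehicle mouse was above every mouse of the other 3 groups, and every control diet VB mouse was above every control diet vehicle mouse. In vehicle mice Agpat3 was higher on Western than on control diet by 0.30 on the log2 scale (SE 0.07, edgeR adjusted p = 0.0034). In VB mice the diet difference was -0.02 (SE 0.07, edgeR adjusted p = 0.89). The VB difference was -0.19 (SE 0.07) on Western diet and 0.13 (SE 0.07) on control diet, and edgeR called neither (adjusted p = 0.0984 and 0.498), although DESeq2 called it lower on Western diet (adjusted p = 0.0163).

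The third step is the phosphatidic acid phosphatase reaction of the lipins. Lipin 1 also acts in the nucleus as a coactivator of fatty acid oxidation genes, and lipin 2 is the form usually counted as prominent in liver. The sequence before the start of Lpin1 (chromosome 12, 16535669 to 16610966, minus strand) is shown because Lpin1 differed with diet in both treatments; it is the RefSeq upstream window on GRCm38.p6, chr12:16610967-16611216, minus strand, written 5′ to 3′, with an AGGTCA nuclear receptor half-site in capitals.
Lpin1 upstream: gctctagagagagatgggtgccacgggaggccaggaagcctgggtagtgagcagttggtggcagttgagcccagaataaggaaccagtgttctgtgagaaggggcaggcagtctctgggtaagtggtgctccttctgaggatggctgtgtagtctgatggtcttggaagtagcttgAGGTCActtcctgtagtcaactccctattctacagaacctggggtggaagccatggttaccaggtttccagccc
The half-site begins 74 bases before the start. On either strand, 14.02% of the 32851 windows of 250 bases in the RefSeq table hold AGGTCA. The other motifs searched were the E-box CACGTG, the CCAAT box, the GC box GGGCGG, the DR1 element (that half-site repeated after a single spacer base), the D-box TTATGTAA of clock output factors and the TATAAA element, and the Lpin1 window held none of them.

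Lpin1 was at 276, 340.3, 400.1, 398 and 503 CPM on Western diet with VB, against 221, 309, 352, 278 and 439 CPM on Western diet with vehicle. On control diet it was at 683, 1011, 734, 997 and 654 CPM with VB, against 336, 593, 569, 367 and 561 CPM with vehicle. All 5 control diet VB mice lay above all mice of the other 3 groups. Lpin1 was lower on Western than on control diet by 1.09 on the log2 scale in VB mice (a change of -1.09, SE 0.20, 2.13-fold lower, edgeR adjusted p = 0.00171). In vehicle mice the change was -0.60 (SE 0.20, 1.52-fold lower, edgeR adjusted p = 0.0416), with overlapping ranges, and this call was lost when any 1 of 7 mice was left out, namely Western diet vehicle mice 1 to 4 or control diet vehicle mice 2, 3 and 5 (adjusted p from 0.0541 to 0.108). It was also lost with no filter on low counts (edgeR adjusted p = 0.0696), in a fit of only the groups compared (0.0665), with lane 1 alone (0.0567) and with the clock score as a covariate, where the change was -0.42 (SE 0.71, adjusted p = 0.996). On control diet Lpin1 was 0.75 higher with VB on the log2 scale (SE 0.20, 1.68-fold), which edgeR's test over all genes did not call (adjusted p = 0.12) and DESeq2 did (adjusted p = 0.0219). On Western diet the VB difference was 0.26 (SE 0.20, edgeR adjusted p = 0.522), and the difference between these VB effects, -0.49 (SE 0.28), was not called (edgeR adjusted p = 0.347).

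Lpin2 (chromosome 17, 71182560 to 71249817, plus strand) and Lpin3 (chromosome 2, 160880670 to 160906002, plus strand) were called in no comparison. Lpin2 averaged 226 ± 9.89 CPM on Western diet with VB and 246 ± 22.9 on Western diet with vehicle, and 249 ± 45.0 on control diet with VB and 233 ± 41.2 on control diet with vehicle (SD, n = 5 each). Lpin3, a minor lipin in liver, averaged 3.22 ± 0.79 CPM on Western diet with VB and 4.26 ± 1.00 on Western diet with vehicle, and 3.43 ± 0.56 on control diet with VB and 2.94 ± 0.64 on control diet with vehicle. Its ranges overlapped in every comparison of a pair of groups. In vehicle mice the diet difference of Lpin3 was 0.54 on the log2 scale (SE 0.20, edgeR adjusted p = 0.0785), and it was called without Western diet vehicle mouse 4 (0.61, adjusted p = 0.0418).

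The make-up of the lipins followed Lpin1. It made up 66.7% ± 4.88 of the summed lipin level per kilobase on Western diet with VB and 60.2% ± 6.94 on Western diet with vehicle. Its share was 79.5% ± 4.57 on control diet with VB and 71.0% ± 6.69 on control diet with vehicle (SD, n = 5 each). The summed lipin level was 59.0 ± 8.93 CPM per kb on Western diet with VB and 54.4 ± 8.07 on Western diet with vehicle, and 106 ± 18.2 on control diet with VB and 70.0 ± 13.3 on control diet with vehicle. Length was taken over all annotated exons of a gene (9665 bases for Lpin1 and 12233 for Lpin2), and the shares depend on that choice.

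**Figure D2:**
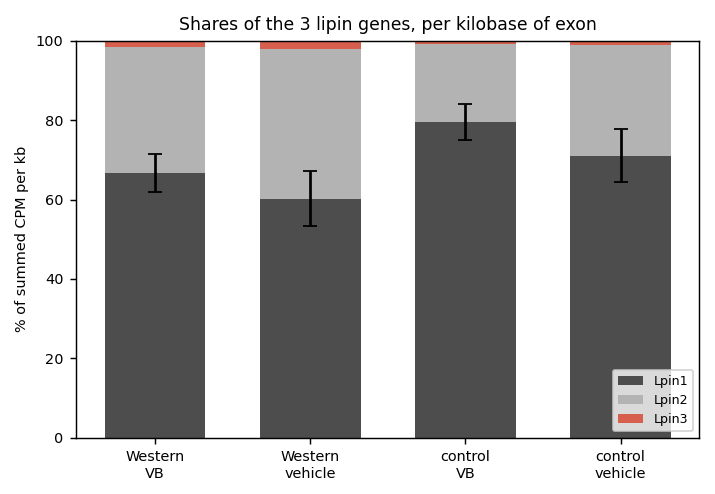
Mean share of Lpin1, Lpin2 and Lpin3 in the summed lipin level (percent of CPM per kb) in the 4 groups; error bars are the SD of the Lpin1 share over 5 mice. Lpin1 holds 79.5% on control diet with VB and 60.2% on Western diet with vehicle.

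The last step is carried out by DGAT1 and DGAT2, unrelated proteins that add the third fatty acid. Dgat1 (chromosome 15, 76502015 to 76511953, minus strand) averaged 26.2 ± 1.72 CPM on Western diet with VB and 27.5 ± 1.94 on Western diet with vehicle, and 25.7 ± 2.26 on control diet with VB and 26.4 ± 1.45 on control diet with vehicle (SD, n = 5 each). Dgat2 (chromosome 7, 99153658 to 99182719, minus strand) averaged 774 ± 44.8 CPM on Western diet with VB and 817 ± 128 on Western diet with vehicle, and 819.6 ± 29.0 on control diet with VB and 742.5 ± 116 on control diet with vehicle. Neither gene was called in any comparison, and their ranges overlapped in each pair of groups. The intervals bound what could have been missed: for VB on Western diet they ran from -0.24 to 0.09 for Dgat1 and from -0.30 to 0.15 for Dgat2 on the log2 scale, and for VB on control diet from -0.20 to 0.12 and from -0.08 to 0.37. Dgat2 made up 96.7% ± 0.20 of the DGAT level per kilobase on Western diet with VB and 96.6% ± 0.64 on Western diet with vehicle, and 96.9% ± 0.21 on control diet with VB and 96.4% ± 0.69 on control diet with vehicle. No RefSeq upstream window was matched for Dgat1 and Dgat2, while the other 7 genes matched 11 windows.

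Mogat1 (chromosome 1, 78510991 to 78538173, plus strand) encodes the monoacylglycerol acyltransferase that makes diacylglycerol outside the glycerol phosphate pathway, and it is known for its rise in fatty mouse liver. The sequence before its start is shown because Mogat1 was the member called for VB. It is the part of the RefSeq upstream window on GRCm38.p6 that lies before the GENCODE start, chr1:78510810-78510990, plus strand, 5′ to 3′, all in lower case since none of the 7 motifs searched occurs in the window.
Mogat1 upstream: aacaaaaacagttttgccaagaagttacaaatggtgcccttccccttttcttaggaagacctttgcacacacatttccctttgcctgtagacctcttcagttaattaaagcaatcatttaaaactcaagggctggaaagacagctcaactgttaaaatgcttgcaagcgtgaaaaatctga
The window has a GC content of 41.2%, against a median of 52.4% over all windows.

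Mogat1 was at 0.93, 1.17, 1.80, 3.40 and 0.53 CPM in mice 1 to 5 on Western diet with VB, against 4.66, 6.88, 5.29, 10.5 and 4.06 CPM on Western diet with vehicle. On control diet it was at 1.70, 1.84, 1.92, 1.69 and 1.69 CPM with VB, against 0.72, 2.26, 1.24, 1.86 and 1.85 CPM with vehicle. The Western diet vehicle mice all lay above every mouse of the other 3 groups, whose ranges overlapped one another. These are low levels, from 11 to 66 reads per mouse on Western diet with VB and from 74 to 147 reads on Western diet with vehicle.

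On Western diet Mogat1 fell with VB, 3.96-fold lower than with vehicle (log2 change -1.99, SE 0.36, edgeR adjusted p = 0.00174). In vehicle mice it was 3.93-fold higher on Western than on control diet (log2 change 1.97, SE 0.36, edgeR adjusted p = 0.000481). With VB the diet difference was -0.17 (SE 0.37, 95% interval from -0.94 to 0.60, edgeR adjusted p = 0.832), and on control diet the VB difference was 0.16 (SE 0.37, interval from -0.61 to 0.93, edgeR adjusted p = 0.915). The VB effect differed between the diets by -2.15 on the log2 scale (SE 0.52, edgeR adjusted p = 0.0125). In bulk liver, fewer cells that express a gene and less of its RNA per cell cannot be told apart.

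Mouse 4, the Western diet vehicle mouse with the high mitochondrial share, had the highest Mogat1. Without it the VB change on Western diet was -1.73 (SE 0.35, edgeR adjusted p = 0.00359). Without VB mouse 1, whose lane labels differ, the change was -1.86 (SE 0.38, edgeR adjusted p = 0.00507), and without VB mice 2 and 5, which had Adipoq, it was -1.60 (SE 0.37, edgeR adjusted p = 0.0255). The diet rise of Mogat1 in vehicle mice without mouse 4 was 1.71 (edgeR adjusted p = 0.0013). Across these 3 omissions the difference of VB effects of Mogat1 ran from -2.02 to -1.77 (edgeR adjusted p from 0.0138 to 0.0448).

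VB mice 2 and 5 had Mogat1 at 1.17 and 0.53 CPM. The 8 adipocyte markers summed to between 23.0 and 98.9 CPM on Western diet with VB and between 72.3 and 318 CPM on Western diet with vehicle, and to between 16.7 and 23.7 CPM on control diet with VB and between 15.98 and 20.1 CPM on control diet with vehicle. Most of the sum in the Western diet vehicle mice was Cfd, at a mean of 167 CPM, while the defining marker Lep was at 0 in all of them. Lipe averaged 10.5 CPM on Western diet with VB and 25.1 CPM on Western diet with vehicle, and 11.2 CPM on control diet with VB and 7.19 CPM on control diet with vehicle. Fabp4 averaged 16.3 CPM on Western diet with VB and 12.6 CPM on Western diet with vehicle, and 6.99 CPM on control diet with VB and 7.35 CPM on control diet with vehicle. Their part in the Mogat1 result was not tested.

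Mogat1 shares 200 exon bases, 12.8% of its exons, with BC035947 on the opposite strand. BC035947 was at 2.52 to 2.99 CPM on Western diet with VB and 2.56 to 4.28 CPM on Western diet with vehicle, and at 1.98 to 2.32 CPM on control diet with VB and 1.52 to 2.32 CPM on control diet with vehicle. The ranges of BC035947 overlapped between the Western diet groups, where those of Mogat1 did not, but those of vehicle mice on Western and control diet did not overlap.

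**Figure D3:**
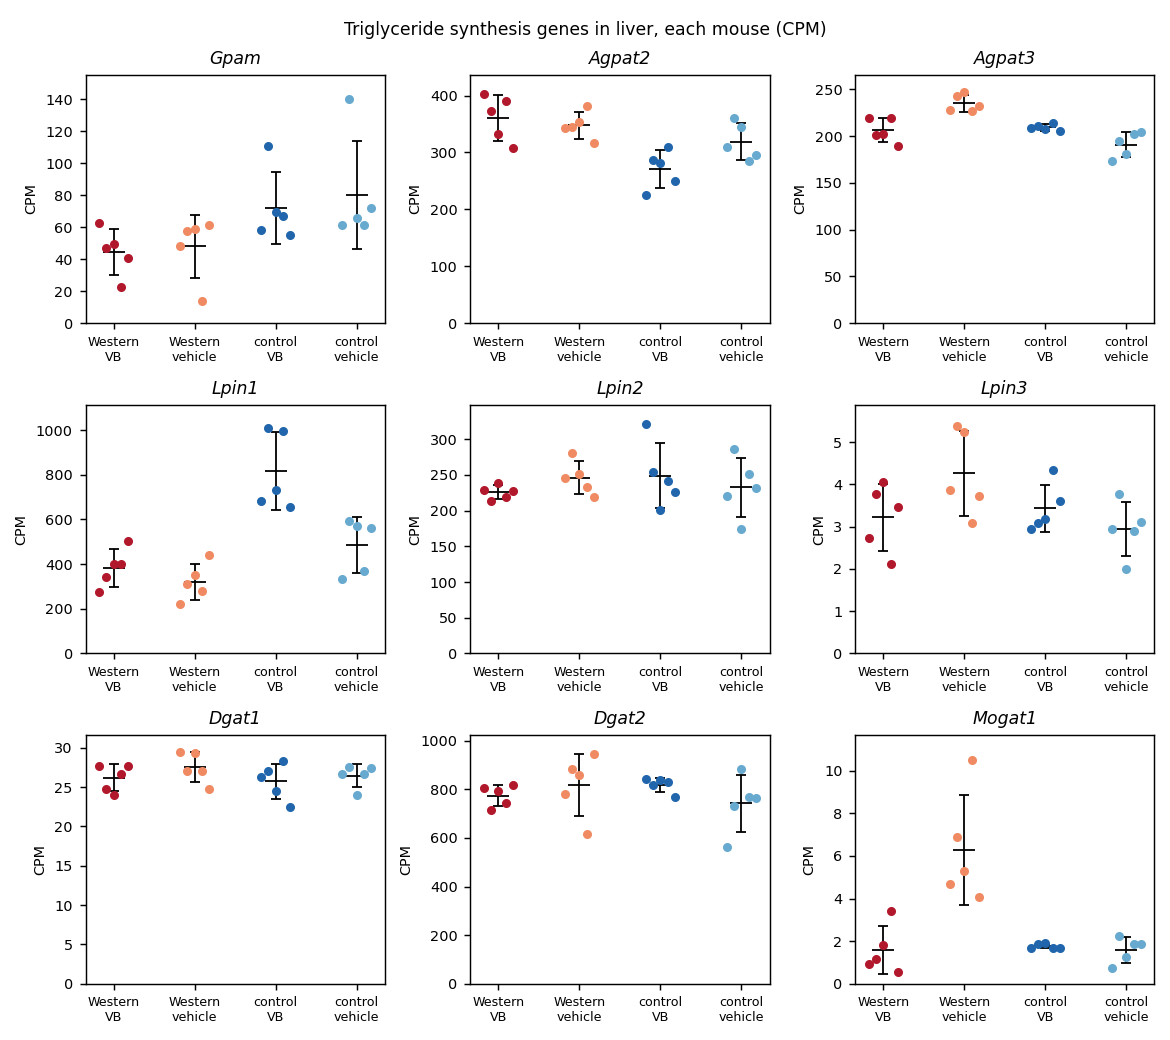
CPM of each of the 9 genes in every mouse (points), with group mean and SD (bars), for Western diet with VB, Western diet with vehicle, control diet with VB and control diet with vehicle; each panel has its own axis from 0. Mogat1 and Agpat3 are raised in the Western diet vehicle mice and Lpin1 in the control diet VB mice.

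Of the 9 genes, 1 was called lower with VB on Western diet, Mogat1, and none higher, while 7.19% of all 12616 genes were called in the same edgeR fit (3.33% higher and 3.86% lower). The median log2 change of the 9 was -0.11, against -0.02 over all genes tested. Agpat3 and Mogat1 were the 2 genes whose ranges did not overlap, as for 5.56% of all genes.

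VB on control diet gave no call among the 9 in edgeR, where none was higher or lower past the threshold, and 1 in DESeq2, Lpin1. In edgeR 2 of the 9, Agpat2 and Lpin1, had an unadjusted p under 0.05, as did 1354 of all 12616 genes. In that comparison 0.151% of all genes were called (0.0555% higher and 0.0951% lower). The median log2 change of the 9 was 0.13, against 0.00 over all genes. Agpat3 and Lpin1 had ranges that did not overlap, as for 3.88% of all genes, and both were higher with VB.

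Diet in vehicle mice gave 3 calls of 9, with Agpat3 and Mogat1 higher and Lpin1 lower on Western diet, where 16.5% of all genes were called (8.92% higher and 7.59% lower). The median log2 change of the 9 was 0.12, against 0.02 over all genes. Gpam, Agpat3 and Mogat1 had ranges that did not overlap, as for 12.2% of all genes. In VB mice diet gave 2 calls, Agpat2 higher and Lpin1 lower on Western diet, where 6.44% of all genes were called (3.23% higher and 3.22% lower). Lpin1 alone had ranges that did not overlap there, as for 9.43% of all genes, and the median of the 9 was -0.08, against 0.00 over all genes. Without VB mouse 1 the changes in VB mice were 0.37 for Agpat2 and -0.99 for Lpin1, and without VB mice 2 and 5 they were 0.45 and -1.21, all still called by edgeR (adjusted p from 0.00563 to 0.0345). These comparisons share groups with each other, so they are not independent.

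The VB effect differed between diets for 2 of the 9, Agpat3 and Mogat1, both with a lower value on Western diet, where 7.64% of all genes were called (3.63% higher and 4.01% lower). Agpat3 differed by -0.32 (SE 0.10, edgeR adjusted p = 0.0414), a call that was lost when any 1 of 14 mice was left out (adjusted p up to 0.0899). The mice were Western diet VB mice 2, 3 and 5, Western diet vehicle mice 2, 3 and 5, all control diet VB mice, and control diet vehicle mice 1, 2 and 3. It was also lost without the VB mice that had Adipoq (-0.28, adjusted p = 0.14). The same held in edgeR with no filter on low counts (-0.32, adjusted p = 0.131) and with lane 2 alone (-0.30, adjusted p = 0.08). With the clock score as a covariate the Agpat3 difference was -0.07 (edgeR adjusted p = 0.996), also not called. Mogat1 kept its call with any 1 mouse left out (adjusted p from 0.0011 to 0.0263). The median difference of the 9 was -0.22, against -0.02 over all genes.

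**Figure D4:**
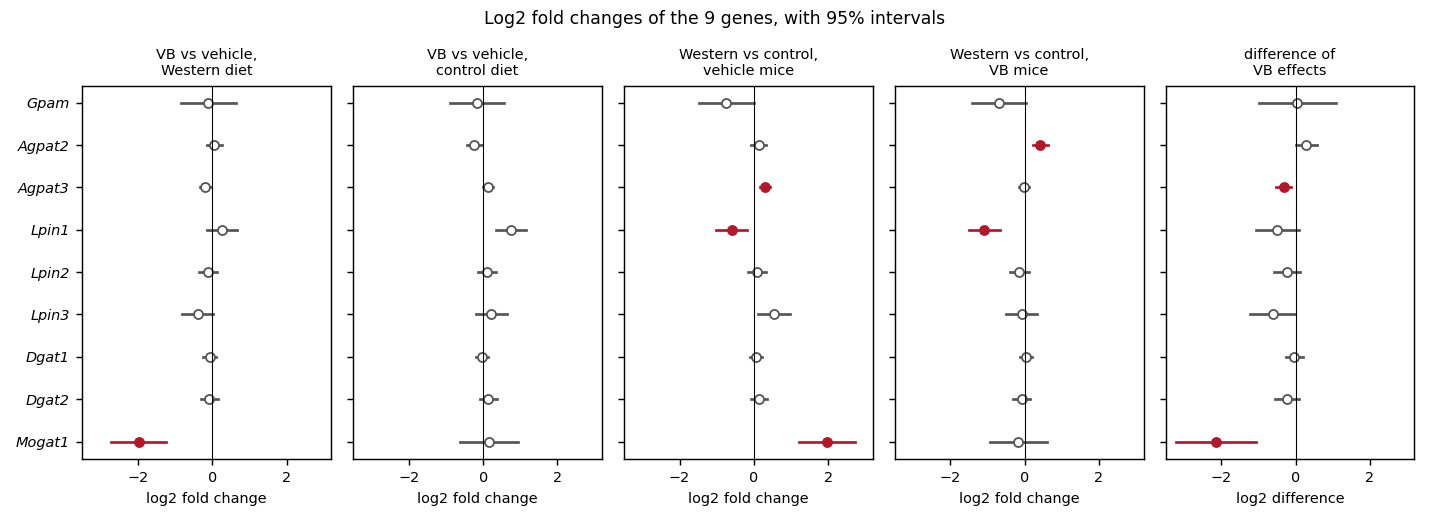
Log2 fold changes of the 9 genes (points) with 95% intervals (bars) in the 4 comparisons and in the difference of the VB effects, Western minus control diet; filled red points have an edgeR adjusted p under 0.05. Mogat1 stands at -1.99 for VB on Western diet and 1.97 for diet in vehicle mice, with the other genes nearer to 0.

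Clock state moved with the same groups. The score ran from -0.25 to 0.72 on Western diet with VB and from 1.20 to 1.48 on Western diet with vehicle, without overlap, and the vehicle groups of the diets lay at opposite ends. Over the 20 mice, Pearson's r with the score was 0.86 for Agpat3, 0.66 for Mogat1 and -0.44 for Lpin1. After group means were removed r was 0.49, 0.31 and -0.05; mice of a group share diet and treatment, and the values describe these mice only. With the score as a covariate, Mogat1 changed by -1.40 with VB on Western diet (SE 0.62, edgeR adjusted p = 0.549) and by 0.47 with diet in vehicle mice (SE 1.34, adjusted p = 0.996), and Agpat3 by 0.00 with diet in vehicle mice (SE 0.22, adjusted p = 1). Agpat2 and Lpin1 kept their calls for diet in VB mice in that fit, which still called 2 of the 9 genes there. The score of control diet VB mice ran from -0.56 to 0.05, overlapping that of Western diet VB mice. Control diet vehicle mice had scores from -1.78 to -0.84. Between the vehicle groups, between the Western diet groups and between the control diet groups, the score did not overlap. Clock state thus cannot be told apart from diet or VB in any of these comparisons. Whether the lost or kept calls depend on the clock was not tested.

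Mogat1 and Agpat3 had like patterns across mice, with Pearson's r of 0.79 over the 20 mice and 0.56 after group means were removed. Likeness was sought among tested genes, leaving out those with Gm, Rik, LOC, RP or accession names. Hadh (r = 0.97) and Cd36 (r = 0.94) were among the genes searched with log2 CPM most like those of Mogat1. Slc5a6 (r = 0.93), Cryz (r = 0.93) and Siae (r = 0.92) were most like Agpat3. Differences between the 4 groups enter all of these values.

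Other enzymes act at the same steps as the 9 genes or on related lipids. Of 12 tested genes of other acyltransferases and phosphatidate phosphatases, of 13 listed, 3 fell and none rose with VB on Western diet, none was called with VB on control diet, 5 rose and none fell with Western diet in vehicle mice, and 1 fell with Western diet in VB mice. Over all genes the shares called in either direction were 7.19%, 0.151%, 16.5% and 6.44% in those comparisons, and 7.64% for the difference of VB effects. At an unadjusted p under 0.05 in edgeR there were 5 of the 12 for VB on Western diet, against 2560 of all 12616 genes. For VB on control diet there were 4 of the 12, against 1354 of all 12616 genes, and DESeq2 called none of the 12 there. The median log2 changes of the 12 were -0.31, 0.14, 0.28 and -0.29 in those comparisons. Agpat9, which encodes the microsomal glycerol-3-phosphate acyltransferase GPAT3 (chromosome 5, 100845713 to 100899102, plus strand), was at 2.73, 2.23, 3.07, 4.84 and 1.11 CPM on Western diet with VB, against 11.8, 19.6, 13.1, 11.2 and 16.1 CPM on Western diet with vehicle. It averaged 4.61 ± 1.40 CPM on control diet with VB and 2.71 ± 1.45 CPM on control diet with vehicle (SD, n = 5 each). Its pattern thus had the same high group as Mogat1, without overlap.

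With VB on Western diet Agpat9 fell by 2.36 on the log2 scale (SE 0.33, edgeR adjusted p = 0.000407), and it rose by 2.41 with Western diet in vehicle mice (SE 0.34, adjusted p = 3.05e-05). The VB effects differed by -3.13 (SE 0.47, edgeR adjusted p = 0.00048). Plpp2, a lipid phosphate phosphatase, fell by 0.42 with VB on Western diet (SE 0.12), and Lpgat1, a lysophospholipid acyltransferase, fell by 0.34 (SE 0.10). With Western diet in vehicle mice Lpgat1 rose by 0.68 (SE 0.10), and Gpat4, another microsomal acyltransferase of the first step, and Agpat1 rose by 0.74 each (SE 0.16 and 0.23). In mice given VB, Plpp2 fell by 0.41 with Western diet (SE 0.12). Of the 12, 5 had a lower VB effect on Western than on control diet and none a higher one, which came to 1 without the VB mice that had Adipoq; they included Plpp2 at -0.68, Lclat1 at -0.80 and Lpgat1 at -0.52. Without those mice 1 of the 12 fell with VB on Western diet, Agpat9 (-2.02, adjusted p = 0.00571), and without Western diet vehicle mouse 4 there were 5. Agpat9 shares 1052 exon bases, 30.0% of its exons, with an antisense transcript, and 259 bases, 7.40%, with Gm42987 on the same strand. Agpat1, at 1.11 to 3.79 CPM over all mice, shares 101 exon bases, 3.37%, with Egfl8 on the opposite strand.

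**Figure D5:**
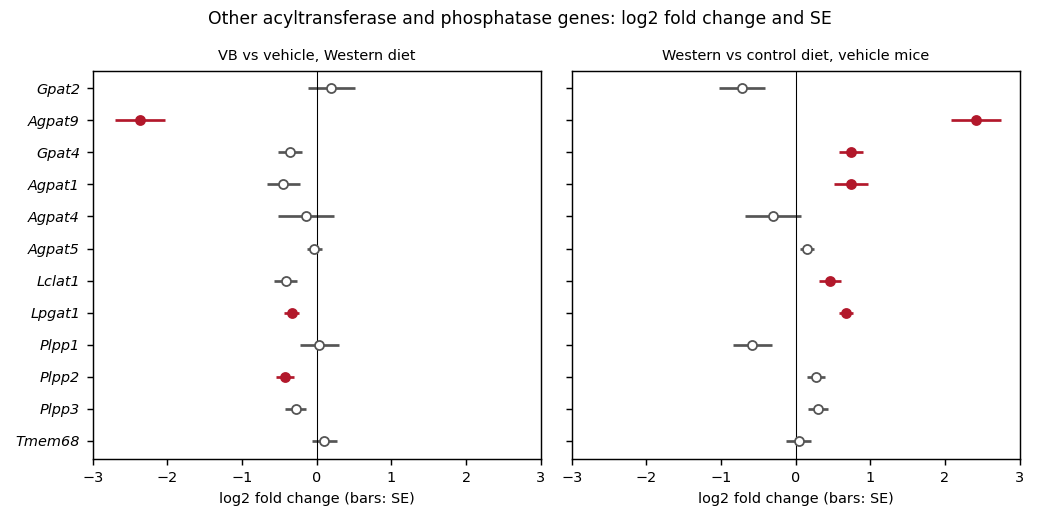
Log2 fold changes (points) with SE (bars) of 12 other acyltransferase and phosphatase genes for VB on Western diet (left) and for Western diet in vehicle mice (right); filled red points have an edgeR adjusted p under 0.05. Agpat9 (GPAT3) lies at -2.36 and 2.41, and the 3 called genes on the left all fell.

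The supply of glycerol phosphate was called in none of the 4 comparisons and not in the difference of VB effects, with 5 of 7 listed genes tested by edgeR. At an unadjusted p under 0.05 there was 1 of the 5 with VB on Western diet, 0 with VB on control diet, 2 with diet in vehicle mice, 1 with diet in VB mice and 1 in the difference. Of all 12616 genes 2560, 1354, 3623, 2719 and 2605 had such a p, in the same order. The shares of all genes called were 7.19%, 0.151%, 16.5%, 6.44% and 7.64%. DESeq2 called 1 listed gene of glycerol phosphate supply, Aqp7, higher with Western diet in VB mice (log2 change 3.32, adjusted p = 0.0185). Aqp7 was not among the genes tested by edgeR and lay between 0 and 0.85 CPM over all mice. Without Western diet vehicle mouse 4, Gk was called lower with VB on Western diet (-0.43, edgeR adjusted p = 0.019) and in the difference (-0.54, adjusted p = 0.0248), and Gk and Gpd1 were called higher with Western diet in vehicle mice (0.40 and 0.29). The genes tested by edgeR were Gpd1, Gpd2, Gk, Aqp9 and Tpi1. Of these Gk, the glycerol kinase, had the lowest p with VB on Western diet (log2 change -0.35, SE 0.12, edgeR adjusted p = 0.0957). Of 11 tested genes, of 12 listed, on the branches that take phosphatidate and diacylglycerol into phospholipids or back, 1 fell with VB on Western diet, where 7.19% of all genes were called, and none was called with VB on control diet, where 0.151% were (edgeR; 1 at an unadjusted p under 0.05, none in DESeq2). With Western diet in vehicle mice 2 rose and 2 fell, and in VB mice 1 fell, against 16.5% and 6.44% of all genes called. For VB on Western diet DESeq2 called 2 higher, Ept1 and Pcyt2, and 2 lower, Chpt1 and Pcyt1a, and without VB mouse 1 edgeR called 2 lower, Chpt1 and Pcyt1a. Chpt1, which makes phosphatidylcholine from diacylglycerol, was at 284 ± 41.4 CPM on Western diet with VB and 449 ± 43.8 CPM on Western diet with vehicle, and it fell by 0.66 with VB (SE 0.10, edgeR adjusted p = 0.000494). It rose by 0.72 with Western diet in vehicle mice (SE 0.10), as did Dgka by 0.60 (SE 0.15), while Pcyt2 and Ept1 of phosphatidylethanolamine synthesis fell by 0.47 and 0.73 (SE 0.08 and 0.13). Cept1 fell by 0.40 with Western diet in VB mice (SE 0.11), a call lost without VB mouse 1 and without the mice with Adipoq, as was that of Plpp2 without the mice with Adipoq. The VB effect was lower on Western diet for Chpt1, by -0.78 (SE 0.14), and higher for Pcyt2, by 0.42 (SE 0.11).

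Among 14 regulators of lipid synthesis, all tested, 2 rose and 1 fell with VB on Western diet, against 7.19% of all genes called. None was called by edgeR with VB on control diet, against 0.151%, and DESeq2 called 1. There 3 of the 14 had an unadjusted p under 0.05 in edgeR, against 1354 of all 12616 genes. With Western diet in vehicle mice 2 rose and 3 fell, and in VB mice 3 rose and none fell, against 16.5% and 6.44% of all genes called. Pparg, the nuclear receptor of lipid storage, was at 5.61 ± 1.86 CPM on Western diet with VB and 17.6 ± 5.60 CPM on Western diet with vehicle, and at 6.92 ± 1.44 CPM on control diet with VB and 5.06 ± 0.38 CPM on control diet with vehicle (SD, n = 5 each). It fell by 1.64 with VB on Western diet (SE 0.22, edgeR adjusted p = 0.000246) and rose by 1.79 with Western diet in vehicle mice (SE 0.23). Insig1, a sterol-regulated brake on SREBP processing, rose by 1.26 with VB on Western diet (SE 0.24, edgeR adjusted p = 0.00303) and fell by 1.96 with Western diet in vehicle mice (SE 0.25). Mlxipl, the carbohydrate response factor ChREBP, rose by 0.58 with VB on Western diet (SE 0.13). Without the VB mice that had Adipoq, 1 regulator rose with VB on Western diet, Insig1 (1.41, edgeR adjusted p = 0.0151), and Pparg fell as before (-1.44, adjusted p = 0.00321).

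Srebf1, which encodes the lipogenic factor SREBP1, was at 352 ± 176 CPM on Western diet with VB and 225 ± 67.7 CPM on Western diet with vehicle, and at 87.9 ± 35.5 CPM on control diet with VB and 142 ± 64.99 CPM on control diet with vehicle. It rose by 2.00 with Western diet in VB mice (SE 0.37, edgeR adjusted p = 0.0024), as did Mlxipl by 0.59 (SE 0.13) and the lipin-activating phosphatase Ctdnep1 by 0.43 (SE 0.12); without the VB mice that had Adipoq, Srebf1 was the 1 regulator called there (2.21, adjusted p = 0.00502). Ppara rose by 1.09 with Western diet in vehicle mice (SE 0.16), where Scap fell by 0.42 (SE 0.13). In VB mice the diet change of Scap was -0.40 (SE 0.13), which edgeR did not call (adjusted p = 0.0624) and DESeq2 did (adjusted p = 0.0305). EdgeR called it there without Western diet vehicle mouse 4 (adjusted p = 0.00145). The VB effect was higher on Western than on control diet for Mlxipl, by 0.89 (SE 0.18), and Insig1, by 1.57 (SE 0.34), and lower for Pparg, by -2.09 (SE 0.32), and Ppara, by -0.77 (SE 0.22). The call for Ppara was lost without VB mouse 1 (edgeR adjusted p = 0.0573) and without the VB mice that had Adipoq (adjusted p = 0.105).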

How the data were processed

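The authors deposited unnormalized gene-level counts for 40 lane files, from liver RNA made into TruSeq libraries per the labels' protocols. The submitters' processing notes name the GRCm38 build. Aligner, counter, annotation and strand setting: not given in the sources used here. The 2 lanes of each mouse differed by a chi-square per degree of freedom of 1.33 to 1.49, against at least 10.3 between mice of a group, and were summed, giving 20 replicates. The numbers in the titles were taken as mice, and p-values measure the spread between them.

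The counts were analysed in R 4.3.3. Genes passing filterByExpr (minimum count 10, minimum total 15), 12616 with 99.95% of counts, were scaled by TMM and fitted over all 4 groups with edgeR 4.0.16 (robust quasi-likelihood). A call means a p under 0.05 after Benjamini-Hochberg adjustment over all genes tested. CPM use TMM-scaled library sizes; correlations use log2 CPM with a prior count of 2. The fit was tested on simulated data. Exon lengths and positions come from GENCODE M21, and upstream sequences from RefSeq. A gene's length was the union of all its annotated exons, so ranks and shares per kilobase depend on that choice. DESeq2 1.42.0, RLE scaling, no filter, single lanes, only the groups compared, Mup genes left out, the clock score as a covariate, the mouse number as a block and leaving out each mouse were the alternatives; leaving out the mice with Adipoq was added after seeing the data. The members, lists and the naming rule (members; up to 4 called genes per list by smallest p; 3 genes most like each member whose VB effects differed) were chosen with earlier results of these data known. A gene that this rule names is not reported here.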

Additional observations from a re-analysis of the deposited data

Results flagged for a closer look

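In groups of 5 mice, a single mouse stood far from the other 4 by Dixon's test (critical ratio 0.71) in 4 of 36 tests, where chance alone gives about 1 in 20. Gpam was at 13.8 CPM in Western diet vehicle mouse 4, with the others from 48.3 to 61.1 CPM. It was at 111.0 CPM in control diet VB mouse 2 (others 54.9 to 69.4 CPM) and at 140.3 CPM in control diet vehicle mouse 2 (others 61.5 to 72.0 CPM). Dgat1 was at 24.0 CPM in control diet vehicle mouse 3 (others 26.6 to 27.6 CPM). The VB effect differed between diets, Western minus control, by -0.32 on the log2 scale for Agpat3 and by -2.15 for Mogat1 in edgeR's quasi-likelihood test (adjusted p = 0.0414 and 0.0125). The Agpat3 call was lost when any 1 of 14 mice was left out, and both calls were lost with the clock score as a covariate.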

How the results depend on the processing

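Over 441 values of single members under settings other than leaving out a mouse, 412 kept their direction and side of the threshold, 12 lost a call, 3 gained one and 14 changed sign; leaving out each mouse gave 861 of 900. Mogat1 kept its 3 calls except with the clock score as a covariate. Where no cause is named, the cause was not tested.

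Members called with VB on Western diet were 2 with DESeq2 and 0 with the clock covariate (edgeR; 2 with an unadjusted p under 0.05); all genes called were 464 in a fit of only the groups compared, 2 with the clock covariate and 295 without the VB mice that had Adipoq, which leaves 3 mice. With VB on control diet 1 member was called with DESeq2 and 1 with the replicate block, and all genes called were 161 with DESeq2, 65 with the block, 66 in the fit of the groups compared, 0 with the clock covariate (edgeR; 701 unadjusted), 30 without Mup genes, 36 with lane 2 and 6 to 66 with a mouse left out. For diet in vehicle mice the clock covariate gave 0 members (edgeR; 1 unadjusted) and 28 genes, and 2 members were called with no filter, in the fit of the groups compared and with lane 1. For diet in VB mice all genes were 520 without the Adipoq mice and 541 to 1397 with a mouse left out. For the difference of VB effects, members called were 1 with no filter, 1 with lane 2, 1 without the Adipoq mice, 0 with the clock covariate (edgeR; 1 unadjusted) and 1 to 2 with a mouse left out; all genes were 1 with the clock covariate, 526 without the Adipoq mice and 665 to 1702 with a mouse left out. A fit of only the groups compared could not be made there. With the clock covariate, all genes at an unadjusted p under 0.05 in edgeR were 1001 for VB on Western diet, 844 for diet in vehicle mice and 709 for the difference.

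Deviations of same-numbered mice from their group means correlated at r from -0.07 to 0.38 (30 pairs, median 0.04, 7 over 0.1). Pairs of different numbers were not set beside them, so whether the numbers pair mice was not tested. With the replicate block Lpin1 changed by 0.79 with VB on control diet (edgeR adjusted p = 0.0286).

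Sign changes, all in uncalled values, were with the clock covariate: for VB on Western diet Gpam 0.10 and Dgat2 0.22; for VB on control diet Dgat1 0.01, Dgat2 -0.14 and Mogat1 -0.47; for diet Dgat2 -0.56 in vehicle mice and Lpin3 0.13 in VB mice; for the difference Dgat2 0.36. With lane 1, Dgat1 was -0.03 for diet in vehicle mice and -0.04 in VB mice; with lane 2 it was 0.01 for VB on control diet, and Gpam 0.00 for the difference. Without the Adipoq mice, diet in VB mice gave Agpat3 0.01 and Mogat1 0.19. With a mouse left out, ranges crossed 0 for VB on Western diet in Gpam (-0.34 to 0.06); for VB on control diet in Gpam (-0.36 to 0.14), Lpin2 (-0.01 to 0.18), Dgat1 (-0.08 to 0.00) and Mogat1 (-0.02 to 0.32); for diet in vehicle mice in Lpin2 (-0.01 to 0.17); for diet in VB mice in Agpat3 (-0.04 to 0.01), Lpin3 (-0.18 to 0.04), Dgat1 (-0.02 to 0.06) and Mogat1 (-0.66 to 0.05); and for the difference in Gpam (-0.25 to 0.26) and Dgat1 (-0.08 to 0.00). Mogat1 and Lpin3 had at most 147 and 108 reads per mouse, which limits their precision.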
